A study of Saccharomyces cerevisiae Sigma1278b with 62 samples.

Results

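The mRNAs described here are those of 10 yeast genes: HAC1 (YFL031W), YAP1 (YML007W), CAD1 (YDR423C), CLN3 (YAL040C), INO2 (YDR123C), PPR1 (YLR014C), FOL1 (YNL256W), HOL1 (YNR055C), SCO1 (YBR037C) and CBS1 (YDL069C). They were taken by ORF name, as mRNAs with known upstream ORFs or, for HAC1, with an intron that blocks translation while it is unspliced, and not by their values. All 10 of 10 were found in each of the 4 count tables, which together hold 5563 ORFs. No annotated gene of the S288C reference R64 overlaps any of them. The study asked how Asc1, the yeast homolog of RACK1 on the small ribosomal subunit, shapes translation, by ribosome footprint profiling with matched RNA-seq. Strains were of the Sigma1278b background, and cycloheximide was added before harvest.

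In the main experiment, cells grown in glucose (YPAD, 2% w/v) were asc1-M1X (the ASC1 start codon changed to a stop, so that the intronic snoRNA snR24 is kept), asc1-Null (ASC1 replaced by a kanMX6 cassette, snR24 lost as well), asc1-D109Y (a point mutation that lowers co-sedimentation of Asc1 with ribosomes), rpl23b-Null and rpp1a-Null (each lacking a gene for a protein of the large subunit), and WT. Each mutant was represented by 2 isolates with 1 culture each, and WT by 2 cultures of 1 strain. An experiment with poly(A)-tailed libraries held asc1-DE, another allele altered in ribosome binding, and its own WT, whose cells were lysed at once rather than frozen as pellets. A set from the Sigma1278b deletion collection held rps0b-Null and rps16b-Null, each lacking a paralog for a protein of the small subunit, and their isogenic WT, and its libraries were made with AMV reverse transcriptase instead of Superscript III. A glycerol experiment held asc1-M1X and WT shifted from glucose to YPAG (3% w/v). Per the paper, these cells were taken hours after the shift, shortly before WT resumed rapid growth. By then polysomes had recovered in WT but only in part in asc1-M1X. For asc1-M1X and WT in glucose, RNA libraries depleted of rRNA with Ribo-Zero were also made and were set against the footprints of the main experiment. Each group had 2 footprint (FP) and 2 RNA libraries, except that the Ribo-Zero groups had RNA alone. The strains asc1-DE, rps0b-Null, rps16b-Null and each WT were 1 isolate.

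A scanning ribosome that meets a short ORF in the leader of an mRNA often translates it and leaves, so that fewer ribosomes reach the main ORF. An upstream ORF can also expose the mRNA to nonsense-mediated decay. In HAC1 mRNA the intron pairs with the leader and stalls translation until Ire1 and the tRNA ligase Trl1 splice it during stress in the endoplasmic reticulum. Translation efficiency (TE) here is the FP count of the main ORF over its RNA count, each scaled for depth, so ORF length cancels. It is given as log2 relative to the median gene. Single FP and RNA levels are given in CPM, that is, reads scaled to a common library total, and are compared between libraries of one type and not between genes. The first codons of each ORF and the upstream ORFs were not counted, and 1 value per ORF does not separate spliced from unspliced HAC1.

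Counted nuclear reads came to 1713047 in the smallest and 15322986 in the largest of the 56 libraries (median 7160680). Reads on the members ranged between 53 and 3938 in an FP library and between 25 and 10749 in an RNA library, with the lowest values in both on CBS1. Reads on ASC1 fell to 249 and 179 in the asc1-M1X FP libraries, against 30475 and 33792 in WT, and to 165 and 66 in asc1-Null FP libraries. In each strain that lacks a ribosomal protein gene, that gene had at most 112 reads in any library, and asc1-D109Y and asc1-DE have no such check. The Ribo-Zero libraries of the mutant are titled asc1-Null, but their strain names and column names are those of asc1-M1X, and they kept 5576 and 6761 ASC1 reads, against 61 and 145 in the RNA libraries of asc1-Null. They are described as asc1-M1X.

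In WT cells of the main experiment the members ran between the lowest TE among genes with at least 128 FP and 128 RNA reads in WT and a TE just above the median gene. HAC1 was the lowest of the 4616 genes ranked with that minimum, and ranked 98 from the lowest of 5312 genes without it. It had log2 TE of -3.64 and -3.59 in the cultures, a TE of 0.0812 of that of the median gene. CLN3, which encodes a G1 cyclin, lay at -2.06 and -2.07. HOL1, a transporter of the plasma membrane, lay at -1.78 and -1.99, and PPR1, the activator of pyrimidine synthesis genes, at -1.94 and -1.83. These 3 were at the 1.47, 2.23 and 2.25 percentiles. HAC1, CLN3 and the pair HOL1 and PPR1 did not overlap in their replicate values, whereas HOL1 and PPR1 could not be put in order.

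The other 6 members lay at the 23.2 percentile of TE or above. FOL1, an enzyme of folate synthesis, had log2 TE of -0.63 and -0.68, and INO2, an activator of phospholipid synthesis genes, had -0.70 and -0.56, so that these overlapped. CAD1, a homolog of YAP1, had -0.31 and -0.36. SCO1, a copper chaperone for cytochrome c oxidase, had 0.09 and -0.07, CBS1, which activates translation of the mitochondrial COB mRNA, had 0.32 and -0.13, and YAP1, the transcription factor of the oxidative stress response, had 0.14 and 0.09. The last 3 overlapped one another and lay at the 50.6, 54.4 and 55.5 percentiles. A known upstream ORF was thus present both in mRNAs at the bottom of the range and in mRNAs at its middle.

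**Figure D1:**
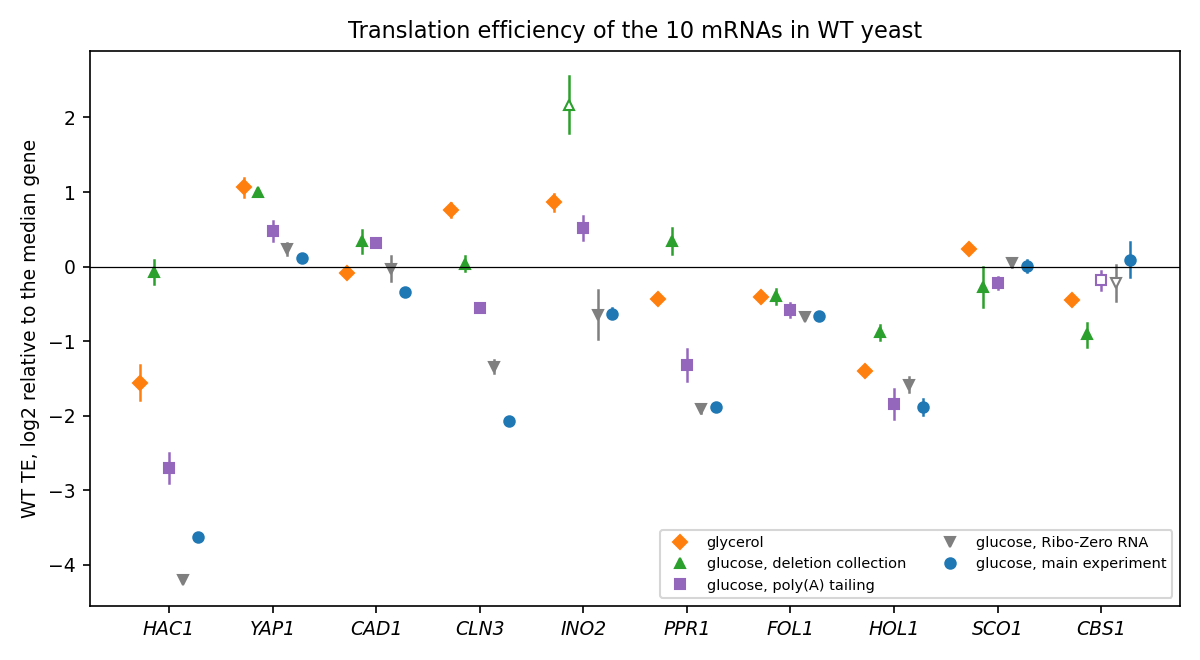
WT translation efficiency of each mRNA as log2 relative to the median gene (vertical axis), in the glycerol experiment and in 4 sets of glucose libraries. Markers are means, lines span the replicates (for the deletion collection, the pairings of its FP and RNA columns), and open markers had fewer than 128 FP or RNA reads in WT. HAC1 lay at -1.56 in glycerol and between -4.21 and -0.08 in the glucose sets, while FOL1 stayed between -0.67 and -0.40 in all 5.

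WT levels of several members differed between experiments far more than between replicates. HAC1 log2 TE was -1.56 in glycerol, -0.08 in the deletion collection, -2.70 in the poly(A)-tailing experiment and -4.21 with Ribo-Zero RNA, against -3.62 in the main experiment. CLN3 was at 0.76 in glycerol, 0.04 in the deletion collection, -0.56 in the poly(A)-tailing experiment and -1.35 with Ribo-Zero RNA, against -2.07. PPR1 was at -0.44, 0.34, -1.32 and -1.91 in the same order, against -1.89. FOL1 moved least, between -0.67 and -0.40.

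These shifts lay in the RNA libraries more than in the footprints. HAC1 footprints were at 56.1 and 60.5 CPM in the deletion collection WT, against 67.0 and 70.8 in the main WT, whereas its RNA was at 81.1 and 68.1 CPM, against 1304 and 1300.2. That is an RNA level 17.5-fold lower in the collection WT, although both were grown in glucose. CLN3 RNA was 7.02-fold lower there, INO2 RNA 7.55-fold, PPR1 RNA 5.66-fold and HOL1 RNA 4.33-fold. CBS1 RNA went the other way, at 29.4 CPM on average in the collection WT, against 17.4. Across all genes the log2 RNA ratio of the 2 WT sets had an SD of 1.48, and the log2 FP ratio an SD of 0.35. The log2 TE of all genes had an SD of 1.24 in the collection WT and 1.22 in the glycerol WT, against 0.87 in the main WT. The collection and main sets differ in strain isolate, library preparation and culture together, so the sources of these RNA differences cannot be told apart, and strains were compared only within a set.

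**Figure D2:**
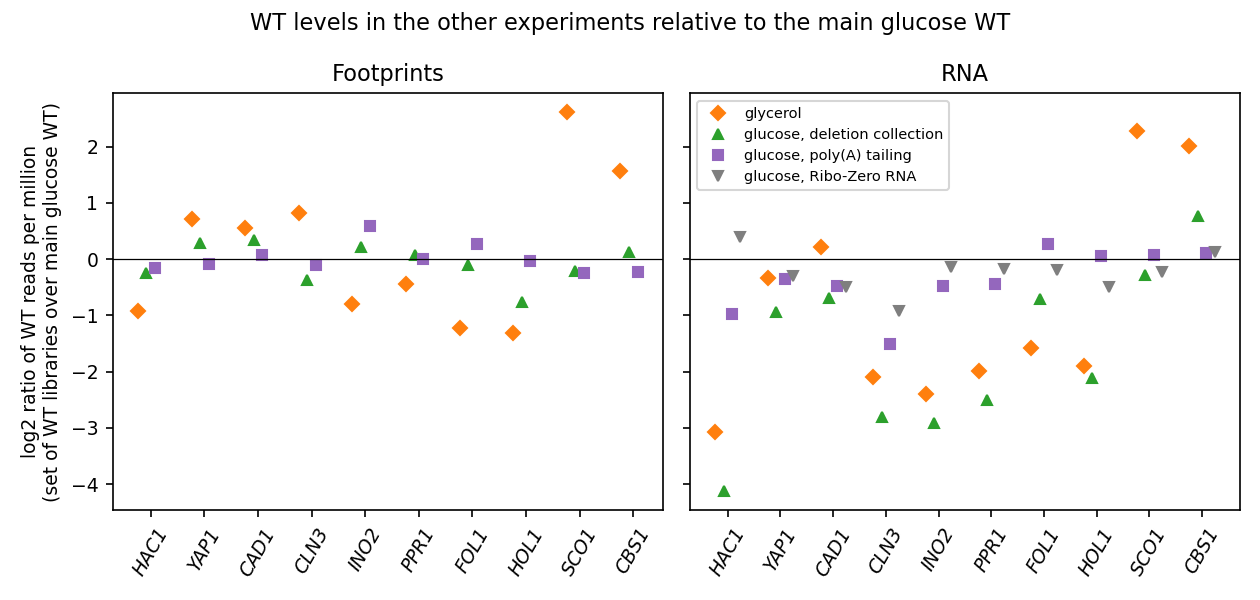
WT levels of each mRNA in the glycerol, deletion collection, poly(A)-tailing and Ribo-Zero sets, as the log2 ratio of mean CPM to that of the main glucose WT, for footprints (left) and RNA (right). In the deletion collection, HOL1 footprints were 1.70 and CLN3 footprints 1.29 times lower, while RNA of HAC1, CLN3, INO2, PPR1 and HOL1 was 4.33 to 17.5 times lower.

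Without the culture block, few members changed in TE in the mutants, and HAC1 was the one that passed in more than a single strain with poly(A)-selected RNA. With the culture as a block, HOL1 passed in the same 4 strains as HAC1 (asc1-M1X, asc1-Null, rpl23b-Null and rpp1a-Null). CAD1 then passed in these strains except asc1-Null, and YAP1 and CLN3 passed in asc1-M1X and asc1-Null. FOL1 passed in asc1-M1X, where it was higher, and in rpp1a-Null, where it was lower. All 10 had the 128 FP and 128 RNA reads that a gene needed, summed over a comparison, in every comparison. In asc1-M1X in glucose, 3 of 10 members passed the test (edgeR's quasi-likelihood test, Benjamini-Hochberg adjustment over all genes), FOL1 higher and HAC1 and HOL1 lower, against 20.2% of 4947 genes. In asc1-Null 1 of 10 passed, against 12% of genes, in rpl23b-Null 2 of 10 (HAC1 lower and CAD1 higher), against 2.62%, and in rpp1a-Null 1 of 10, against 3.87%. HAC1 was the member that passed in asc1-Null and in rpp1a-Null. None passed in asc1-D109Y or asc1-DE, where 0% of genes passed with edgeR in the fit without the block. At an unadjusted p under 0.05 there were 129 genes, CAD1 among them, in asc1-D109Y and 33 genes with 0 members in asc1-DE, and DESeq2 called 0 members in each. None passed in rps0b-Null, against 1.43% of genes, or in rps16b-Null, against 0.145%, with 1 member each at an unadjusted p under 0.05 (CLN3 and HAC1) and 0 called by DESeq2. The share of members called in asc1-M1X was near that of all genes. The median log2 TE change of the 10 members was -0.28 in asc1-M1X and -0.37 in asc1-Null, beside -0.01 over all genes in both. It was -0.08 in rpl23b-Null and -0.18 in rpp1a-Null, beside 0.00 over all genes. The main WT libraries are shared by all 5 mutants of that experiment. Scaling by library totals alone would move the median FP change of all genes to 0.15 in asc1-M1X and asc1-Null, 0.18 in rpl23b-Null and 0.17 in rpp1a-Null, so fitted changes can lie below those seen in CPM.

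With the culture as a block, since FP and RNA libraries came from the same extracts, 6 members passed in asc1-M1X (32.2% of genes) and 6 in asc1-Null (30% of genes). In rpp1a-Null 4 passed (21.1% of genes), and in rpl23b-Null 3 passed (5.21% of genes). In asc1-D109Y and asc1-DE none of the members passed with it, against 0.0821% and 0% of genes. Leaving out a culture at a time gave 1 or 2 members in asc1-M1X and in rpl23b-Null, and 0 in rpp1a-Null when either WT culture was left out.

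**Figure D3:**
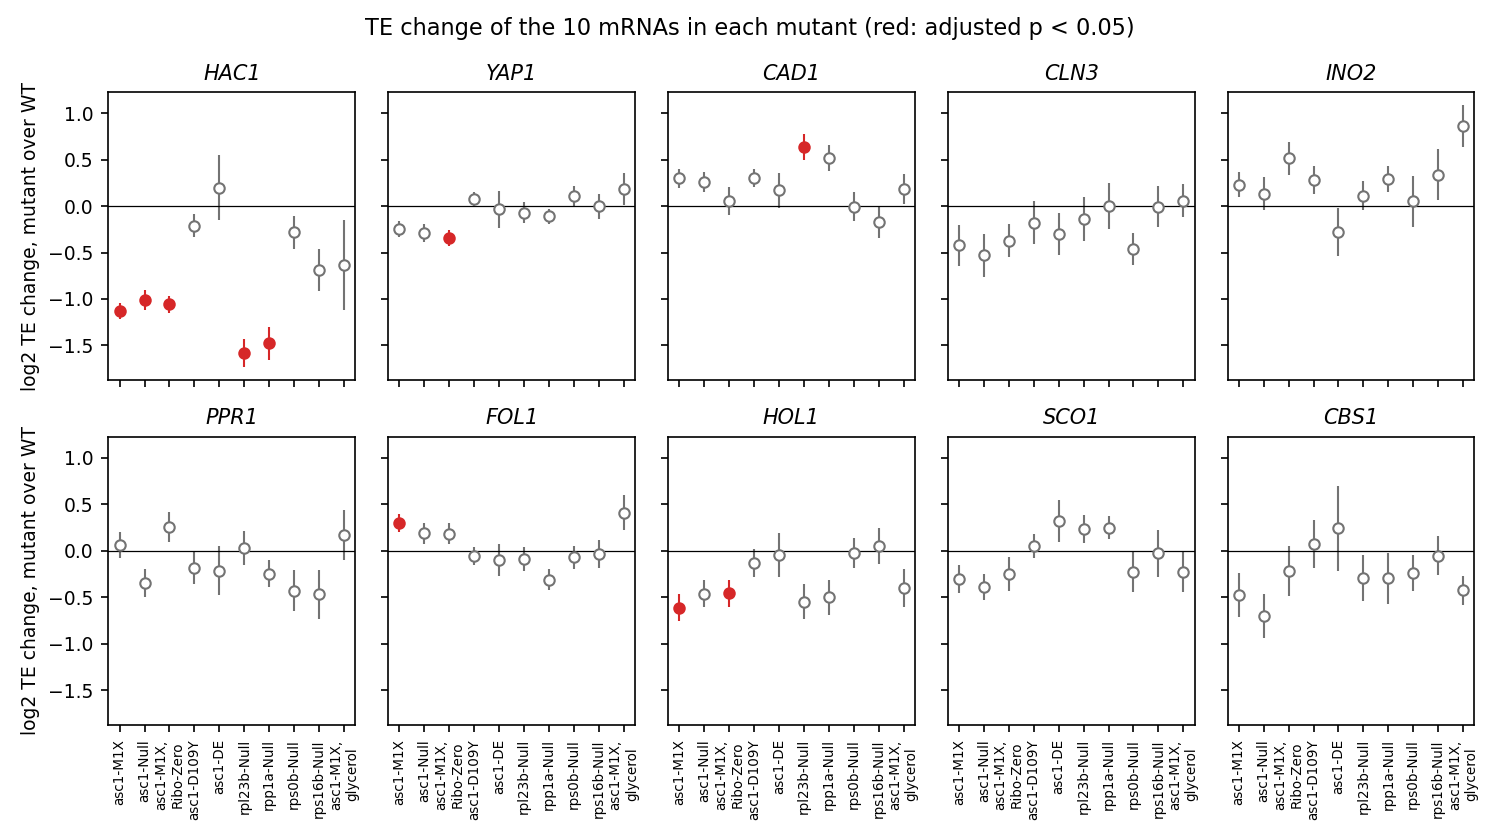
Log2 TE change, mutant over WT of the same experiment (vertical axis, error bars SE), of the 10 mRNAs in 10 comparisons, each of 2 mutant with 2 WT cultures. Filled red points had an adjusted p under 0.05 (edgeR). HAC1 was lower at between -1.58 and -1.01 in asc1-M1X (both RNA selections), asc1-Null, rpl23b-Null and rpp1a-Null, and FOL1 and HOL1 were the other members with a filled point in asc1-M1X with poly(A)-selected RNA.

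HAC1, the bZIP transcription factor of the unfolded protein response, lost footprints in every one of these 4 strains. It had 37.6 and 35.5 CPM in FP in asc1-M1X, 38.3 and 38.8 in asc1-Null, 20.8 and 15.8 in rpl23b-Null, and 24.6 and 15.6 in rpp1a-Null, against 67.0 and 70.8 in WT. All 8 mutant libraries lay below both WT libraries. Across all genes 52.3% passed in FP in asc1-M1X, 48.9% in asc1-Null, 49.4% in rpl23b-Null and 41.4% in rpp1a-Null. Its RNA was 1520.3 and 1429 CPM in asc1-M1X and 1494 and 1372 in asc1-Null, against 1304 and 1300.2 in WT. These RNA differences did not pass the test, which 37.2% and 32.6% of all genes passed. In rpl23b-Null (979 and 1006) and rpp1a-Null (1046 and 1040.2) RNA was below WT, with log2 changes of -0.50 (SE 0.09, adjusted p = 0.00525, edgeR) and -0.43 (SE 0.07, adjusted p = 0.00274, edgeR). Across all genes 24.2% and 28.6% passed in RNA.

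The TE of HAC1 fell by 1.13 on the log2 scale in asc1-M1X (SE 0.09, adjusted p = 6.34e-06, edgeR), to 0.457 of the WT value. It fell by 1.01 in asc1-Null (SE 0.10, adjusted p = 0.000223, edgeR). Each set against the WT culture of the same number, the cultures gave -1.10 and -1.14 in asc1-M1X and -1.04 and -0.96 in asc1-Null. Changes of single cultures below were taken in the same way, although mutant and WT cultures share only that number. In rpl23b-Null it fell by 1.58 (SE 0.15, adjusted p = 6.61e-05, edgeR), with -1.33 and -1.89 in the cultures, and footprints fell by 2.07. In rpp1a-Null it fell by 1.48 (SE 0.18, adjusted p = 0.00257, edgeR), with -1.21 and -1.88, and footprints fell by 1.90. The rpp1a-Null call was lost without either WT culture. Among genes past the read minimum, HAC1 had the lowest TE in asc1-Null, rpl23b-Null, rpp1a-Null and asc1-D109Y. In asc1-M1X only ASC1 itself was lower among them. Differences in HAC1 between the mutants were not tested.

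**Figure D4:**
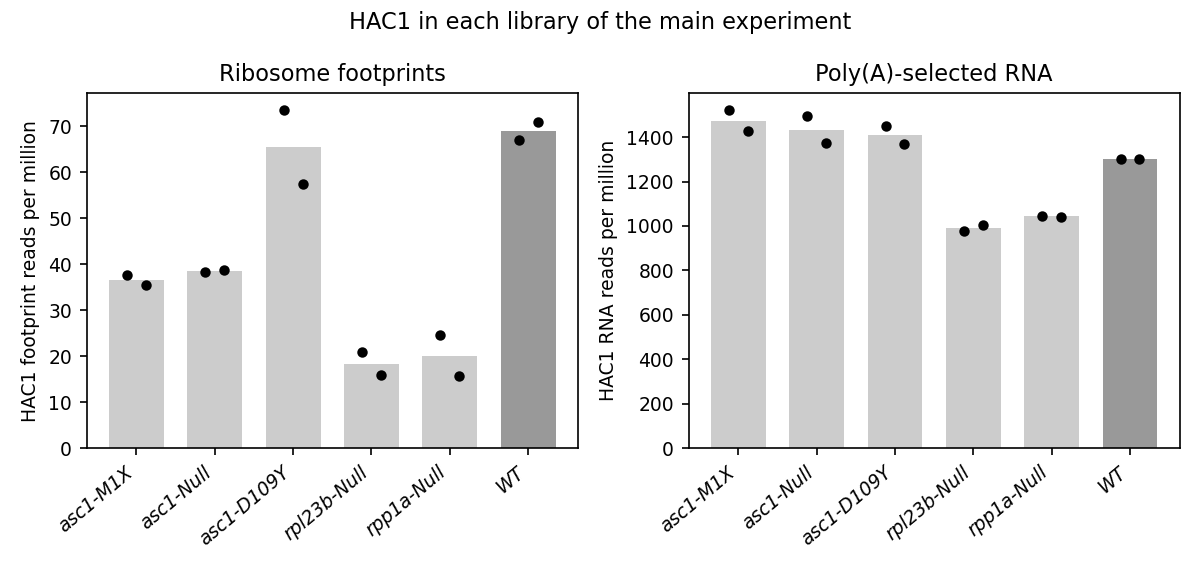
HAC1 footprint (left) and poly(A)-selected RNA (right) CPM in each library of the main experiment. Bars are means and points are the 2 libraries. Footprints were between 15.6 and 38.8 in asc1-M1X, asc1-Null, rpl23b-Null and rpp1a-Null and 67.0 and 70.8 in WT, while RNA was between 979 and 1520.3 in all strains.

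In the other strains no HAC1 change in TE passed the test. CPM in FP were 73.4 and 57.5 in asc1-D109Y, with 1 library above and 1 below the WT libraries, and the log2 TE change was -0.21 (SE 0.13, adjusted p = 0.998, edgeR). In asc1-DE, CPM in FP were 84.4 and 54.6, against 62.4 and 60.7 in its WT, with a TE change of 0.20 (SE 0.35). In rps0b-Null they were 38.9 and 53.1, against 56.1 and 60.5 in the collection WT, with a TE change of -0.28 (SE 0.18, adjusted p = 0.422, edgeR). In rps16b-Null they were 47.8 and 44.7, an FP change of -0.33 (SE 0.08, adjusted p = 0.0453, edgeR) in a comparison where 6.66% of genes passed. That FP call was lost with DESeq2 (adjusted p = 0.124) and without either rps16b-Null culture. The TE estimate was -0.69 (SE 0.23, adjusted p = 0.465, edgeR). All 4 mutant libraries of the collection lay below both of its WT libraries in footprints. The rps16b-Null RNA libraries stood apart from each other on HAC1, with 124 and 73.9 CPM, and without the culture of replicate 2 the TE change passed the test.

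With Ribo-Zero RNA the HAC1 result of asc1-M1X was of the same size. HAC1 RNA was 1768 and 1828 CPM in asc1-M1X, against 1687 and 1738 in WT, an RNA change of -0.01 (SE 0.05, adjusted p = 0.936, edgeR). TE fell by 1.05 (SE 0.09, adjusted p = 1.88e-09, edgeR). In all, HAC1, YAP1 and HOL1 passed with Ribo-Zero RNA, 3 of 10 members and all lower, against 9.34% of 4849 genes. With the block INO2 passed as well, higher by 0.49 (adjusted p = 0.0447, edgeR), against 13.1% of genes. Its cultures gave 0.75 and 0.14. Without the block the INO2 change was 0.52 (adjusted p = 0.0642, edgeR), and between 0.12 and 0.77 in fits that left out a culture. The footprint libraries are those of the main experiment, so the 2 results are not independent.

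YAP1 and CAD1 encode paralogous bZIP factors, Yap1 for the response to oxidants and Cad1 for resistance to cadmium and other stresses. YAP1 footprints were 175 and 161 CPM in asc1-M1X and 158 and 176 in asc1-Null, against 175 and 186 in WT. The log2 FP changes of -0.25 (adjusted p = 0.00398, edgeR) and -0.26 (adjusted p = 0.00568, edgeR) passed, and neither passed when libraries were scaled by their totals alone (-0.11 and -0.12). YAP1 TE changes were -0.25 (SE 0.08, adjusted p = 0.0528, edgeR) and -0.29 (SE 0.10, adjusted p = 0.0700, edgeR), and both passed with the culture block (adjusted p = 0.0068 and 0.00277). With Ribo-Zero RNA the asc1-M1X change of -0.34 passed (SE 0.09, adjusted p = 0.0135, edgeR), and it did not pass in 3 of 4 fits that left out a culture or with scaling by totals (-0.28, adjusted p = 0.0534).

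In rpl23b-Null and rpp1a-Null, YAP1 footprints and RNA rose together. Footprints were 241 and 244 CPM in rpl23b-Null and 236 and 247 in rpp1a-Null, above 175 and 186 in WT. RNA was 335 and 349.5 in rpl23b-Null and 348 and 366 in rpp1a-Null, above 248 and 264 in WT. The log2 FP changes were 0.25 (adjusted p = 0.00518, edgeR) and 0.26 (adjusted p = 0.0104, edgeR). The log2 RNA changes were 0.31 (adjusted p = 0.0457, edgeR) and 0.37 (adjusted p = 0.00544, edgeR), and the TE changes were -0.07 and -0.11, neither past the threshold. Without WT culture 1 neither FP change passed (0.22 and 0.23), and the RNA change in rpl23b-Null was lost without either WT culture and with DESeq2 (0.31, adjusted p = 0.0507).

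CAD1 moved the other way in RNA. It had 63.5 and 60.1 CPM in RNA in rpl23b-Null and 58.6 and 71.3 in rpp1a-Null, below 85.7 and 85.3 in WT, with log2 changes of -0.57 (SE 0.10, adjusted p = 0.00555, edgeR) and -0.50 (SE 0.10, adjusted p = 0.00725, edgeR). Its footprints hardly differed, at 49.3 and 55.2 in rpl23b-Null and 47.3 and 53.0 in rpp1a-Null, against 44.3 and 43.6 in WT. TE rose by 0.64 in rpl23b-Null (SE 0.14, adjusted p = 0.0257, edgeR), a call that 3 of 4 fits without a culture lost. The TE change of 0.52 in rpp1a-Null (SE 0.14, adjusted p = 0.0653, edgeR) passed with the block (adjusted p = 0.000862). In asc1-M1X and asc1-Null the CAD1 footprints rose, to 66.0 and 68.4 in asc1-M1X and 64.8 and 68.1 in asc1-Null, with changes of 0.47 and 0.45 that passed. Its TE change in asc1-M1X, 0.30 (SE 0.10, adjusted p = 0.0512, edgeR), passed with the block (adjusted p = 0.0250) and with scaling by totals (adjusted p = 0.0326). Taken with Ribo-Zero RNA, that change was 0.05 (adjusted p = 0.878, edgeR), and the cultures had opposite signs (0.30 and -0.26). In rps0b-Null CAD1 fell in RNA by 0.33 (SE 0.10, adjusted p = 0.0157, edgeR) and in FP by 0.34 (adjusted p = 0.0467, edgeR, a call lost with scaling by totals), and its TE estimate was -0.01.

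Among the other regulators, CLN3, INO2 and PPR1, no TE change in a mutant passed in the fit without the block. CLN3, whose upstream ORF is known to tie G1 progression to growth rate, had log2 TE changes of -0.42 (SE 0.22) in asc1-M1X and -0.53 (SE 0.23) in asc1-Null, which passed with the block (adjusted p = 0.00846 and 0.00202). Its footprints were 23.3 and 19.2 CPM in asc1-M1X, against 25.8 and 19.9 in WT, so 1 library lay between the WT libraries and 1 just under them. Its RNA was 185 and 174 CPM in asc1-M1X and 194 and 189 in asc1-Null, against 167 and 127 in WT, and did not pass. The asc1-M1X TE change with Ribo-Zero RNA was -0.37 (adjusted p = 0.187, edgeR). CLN3 RNA rose in rps0b-Null, to 34.8 and 33.5 CPM, against 22.1 and 19.8 in the collection WT, a log2 change of 0.69 (SE 0.13, adjusted p = 0.000133, edgeR), where 25.6% of genes passed in RNA and 19.4% in FP.

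INO2 footprints were 37.7 and 34.4 CPM in asc1-M1X, above 25.0 and 26.7 in WT, a log2 change of 0.34 (SE 0.10, adjusted p = 0.0123, edgeR). Its TE change was 0.23 (SE 0.14, adjusted p = 0.255, edgeR). The TE change of INO2 was above 0 in 8 of the 9 mutant comparisons with poly(A)-selected RNA, of which 5 share the WT of the main experiment. None passed without the block, and that of asc1-M1X in glycerol passed with it (0.86, adjusted p = 0.0115). In rpl23b-Null INO2 had 24.6 and 26.1 CPM in FP, and in rpp1a-Null 29.4 and 25.5, against 25.0 and 26.7 in WT. Its RNA was 56.1 and 49.0 in rpl23b-Null and 52.1 and 51.2 in rpp1a-Null, below 63.0 and 59.8 in WT. The rpp1a-Null RNA fall passed, a call lost with scaling by totals (-0.25, adjusted p = 0.0611, edgeR). PPR1 RNA rose in rpp1a-Null, to 108.7 and 114 CPM, against 87.9 and 79.0 in WT (log2 change 0.31, adjusted p = 0.0256, edgeR), and in rps0b-Null by 0.50 (SE 0.16, adjusted p = 0.0199, edgeR). Its TE changes lay between -0.47 and 0.17 in the 9 comparisons with poly(A)-selected RNA and at 0.25 in asc1-M1X with Ribo-Zero RNA, and none passed.

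FOL1 and HOL1 encode an enzyme and a transporter. HOL1, whose upstream ORF is known to sense polyamines, had 19.9 and 18.8 CPM in FP in asc1-M1X and 22.8 and 21.9 in asc1-Null, below 33.2 and 27.6 in WT. RNA was 172 and 157 in asc1-M1X, against 178 and 167 in WT, and did not pass. TE fell by 0.61 in asc1-M1X (SE 0.14, adjusted p = 0.00987, edgeR), with -0.74 and -0.47 in the cultures, and the call was lost without either asc1-M1X culture. With Ribo-Zero RNA TE fell by 0.46 (SE 0.15, adjusted p = 0.0468, edgeR) and RNA fell by 0.33 (adjusted p = 0.00100, edgeR; 37.6% of genes passed in RNA). Each of the 4 fits without a culture lost that TE call, as did scaling by totals (-0.39, adjusted p = 0.0882). The HOL1 TE changes in asc1-Null, rpl23b-Null and rpp1a-Null were -0.47, -0.55 and -0.50. They passed only with the block (adjusted p = 0.00340, 0.0485 and 0.00168).

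FOL1 differed in the opposite direction in asc1-M1X. Its footprints were 76.6 and 77.6 CPM, above 57.0 and 56.8 in WT, and RNA was 154 and 143, against 138 and 139. TE rose by 0.30 (SE 0.10, adjusted p = 0.0443, edgeR), with 0.22 and 0.40 in the cultures, and the call was lost in each of the 4 fits without a culture. The asc1-M1X TE change with Ribo-Zero RNA was 0.18 (adjusted p = 0.320, edgeR) and did not pass. The change in asc1-Null was 0.19 (SE 0.11, adjusted p = 0.294, edgeR), and in rpp1a-Null -0.31 (SE 0.11, adjusted p = 0.139, edgeR), which passed with the block (adjusted p = 0.0207).

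SCO1 and CBS1 serve the mitochondrial respiratory chain, and both lost footprints without Asc1. SCO1 had 20.5 and 23.8 CPM in FP in asc1-M1X and 22.2 and 20.6 in asc1-Null, below 29 and 28.4 in WT, with log2 changes of -0.52 (SE 0.11, adjusted p = 0.00203, edgeR) and -0.56 (SE 0.11, adjusted p = 0.00119, edgeR). CBS1 had 9.2 and 9.0 in asc1-M1X and 7.6 and 9.2 in asc1-Null, below 12 and 11.8 in WT, with changes of -0.53 and -0.67 that also passed. Their TE changes did not pass without the block. They were -0.30 and -0.39 for SCO1 and -0.48 and -0.70 for CBS1 in asc1-M1X and asc1-Null, and those of asc1-Null passed with it (adjusted p = 0.0385 and 0.0239). SCO1 footprints were above WT in rpl23b-Null, at 38.1 and 40.2, with a change of 0.27 (SE 0.11, adjusted p = 0.0465, edgeR). Those of CBS1 were below WT, at 9.2 and 10.8 (-0.44, adjusted p = 0.0374, edgeR), a call lost with scaling by totals (-0.27).

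In glycerol, no member changed in TE between asc1-M1X and WT in the fit without the block, against 0.216% of 5083 genes, with 2 members (INO2 and CBS1) at an unadjusted p under 0.05 and 0 called by DESeq2. With the block HAC1 and INO2 passed (11.3% of genes). HAC1 footprints were 15.1 and 32.8 CPM in asc1-M1X, against 34.9 and 37.6 in WT, and its RNA 103 and 220.4, against 180.1 and 129.7. The asc1-M1X cultures thus differed by about as much in FP as in RNA. Relative to the WT culture of the same number, TE changed by -0.46 and -0.86, and the blocked change was -0.70 (adjusted p = 0.00100, edgeR), whereas the fit without the block gave -0.63 (SE 0.48, adjusted p = 0.606, edgeR). The 2 INO2 footprint values of asc1-M1X, 39.6 and 38.6, lay above 15.5 and 14.1 in WT, a log2 change of 1.26 (SE 0.13, adjusted p = 0.00108, edgeR). RNA was 15.0 and 18.9, against 11.8 and 11.6. The TE change was 0.86 (SE 0.23, adjusted p = 0.197, edgeR, and 0.0115 with the block).

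Of the 10 members, 5 changed in footprints in asc1-M1X in glycerol, against 41.3% of genes. The fitted log2 changes of YAP1 and CAD1 were 0.44 and 0.41, and both rose. YAP1 reached 465 and 423 CPM in FP, against 310 and 283 in WT, whereas in glucose its change was -0.25. SCO1 fell by 0.73 and CBS1 by 0.53, and SCO1 RNA fell by 0.50 (adjusted p = 0.0405, edgeR), in a comparison where 18.3% of genes passed in RNA. That RNA call was lost with scaling by totals (-0.36) and without WT culture 2. None of the 10 passed when the difference in TE change between the media was itself tested, against 0.711% of 5201 genes. Of the 10, 1 (INO2) had an unadjusted p under 0.05 and DESeq2 called 0. The estimates were 0.52 for INO2 (SE 0.24, adjusted p = 0.337, edgeR), 0.39 for HAC1 (SE 0.56, adjusted p = 0.801, edgeR) and 0.33 for YAP1 (SE 0.18, adjusted p = 0.411, edgeR), beside a median of -0.15 over all genes.

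WT cells in glycerol differed from WT cells in glucose on most members and on most genes. In TE, 6 of 10 members passed, 5 higher and 1 lower, against 73.9% of 5091 genes. The median log2 TE change over all genes was 0.11, and 0.36 when libraries were scaled by their totals alone, so single changes are read against that shift. In FP all 10 members passed (76.6% of genes), and in RNA 9 passed, all but YAP1 (85.5% of genes). CLN3 TE was 2.67 higher (SE 0.23, adjusted p = 5.69e-06, edgeR). Its footprints were 40.4 and 40.6 CPM in glycerol, against 25.8 and 19.9 in glucose, and its RNA 33.2 and 35.5, against 167 and 127. HAC1 TE was 1.90 higher (SE 0.19, adjusted p = 1.1e-05, edgeR), with footprints of 34.9 and 37.6, against 67.0 and 70.8, and RNA of 180.1 and 129.7, against 1304 and 1300.2. HAC1 thus had fewer footprints in glycerol, and far less RNA.

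INO2 and PPR1 followed the same course, with TE changes of 1.33 and 1.30, FP changes of -0.96 and -0.58 and RNA changes of -2.30 and -1.89. YAP1 TE rose by 0.80 (SE 0.13, adjusted p = 0.000433, edgeR), with footprints of 310 and 283, against 175 and 186. HOL1 and FOL1 fell in footprints by 1.46 and 1.39 and in RNA by 1.81 and 1.5, and their TE changes of 0.34 and 0.10 did not pass, although that of HOL1 did with scaling by totals (0.60, adjusted p = 0.0102). With that scaling the TE change of CAD1 passed as well (0.36, adjusted p = 0.0278), and its RNA call was lost (0.21, adjusted p = 0.0988). SCO1 had 154 and 196 CPM in FP in glycerol, against 29 and 28.4 in glucose, and RNA of 189 and 238, against 42.3 and 45.4. CBS1 had 34.4 and 36.5 CPM in FP, against 12 and 11.8, and RNA of 69.9 and 69.4, against 15.0 and 19.8. Both respiratory genes rose several-fold in FP and RNA, and CBS1 TE fell by 0.67 (SE 0.20, adjusted p = 0.0131, edgeR), a call lost without glucose culture 1 and with scaling by totals (-0.42, adjusted p = 0.0890). In RNA of HAC1, CLN3, INO2, PPR1 and HOL1 the glycerol WT and the collection WT, which grew in glucose, both lay 3.74 to 17.5 times below the main WT. The media were separate experiments, so medium and library set cannot be told apart for any difference between glycerol and glucose given here.

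Between poly(A)-selected and Ribo-Zero RNA of WT, 3 members passed, a share near that of all genes. In WT, poly(A)-selected RNA held less HAC1 than Ribo-Zero RNA, at 1304 and 1300.2 CPM, against 1687 and 1738 (log2 difference -0.62, SE 0.06, adjusted p = 6.86e-09, edgeR). It held more CLN3 (0.68, SE 0.12, adjusted p = 3.66e-05, edgeR) and more HOL1 (0.27, SE 0.09, adjusted p = 0.0185, edgeR). Across all genes 29.8% of 5084 passed. The RNA types are separate libraries that also differ in depth. Whether the selection itself gave these differences was not tested.

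Genes of the pathways around the members were counted from 10 lists. Of 16 genes of the unfolded protein response, which Hac1 activates, 12 fell and 1 rose in footprints in rpl23b-Null, where 24.8% of all genes fell, and 12 fell and 1 rose in rpp1a-Null, where 20.4% fell. In RNA 8 fell in rpl23b-Null (12.5% of genes) and 9 fell in rpp1a-Null (15.4% of genes). Their median log2 FP changes were -0.56 and -0.49, beside 0.01 over all genes in both. In asc1-M1X 5 fell and 1 rose in footprints and 2 fell in RNA, where 25.5% and 26.9% of genes fell and rose in footprints and 18.3% fell in RNA. The median FP change of the list was -0.10. In TE 3 fell in asc1-M1X, among them IRE1, the sensor that splices HAC1 (-0.56, SE 0.13, adjusted p = 0.0110, edgeR), and the protein disulfide isomerase gene EUG1 (-0.43, SE 0.12, adjusted p = 0.0203, edgeR). None of the 16 passed in TE in rpl23b-Null or rpp1a-Null.

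Of 12 Ino2 target genes, 2 rose and 3 fell in TE in asc1-M1X. INO1, the first enzyme of inositol synthesis, rose by 1.70 (SE 0.25, adjusted p = 0.000478, edgeR) and CKI1, choline kinase, by 0.94 (SE 0.09, adjusted p = 2.58e-05, edgeR), and both also rose in asc1-Null, by 1.2 and 0.86. With Ribo-Zero RNA the CKI1 change in asc1-M1X was 0.49 (SE 0.10, adjusted p = 0.00185, edgeR). Its TE change in asc1-M1X was lower in the glycerol experiment than in the main glucose experiment, by a difference of -1.39 (SE 0.22, adjusted p = 0.0119, edgeR). In the G1 cyclin network 3 of 12 rose and 1 fell in asc1-M1X, led by the cyclin PCL1 (0.64) and the kinase CDC28 (0.50). Of 11 Yap1 targets tested 1 rose and 2 fell, and of 12 polyamine genes tested 2 fell, SPE4 (-0.57) and TPO5 (-0.57). Of 8 pyrimidine genes 2 rose and 2 fell, with the nucleotide kinase URA6 at -0.60. Of 6 folate genes, FOL2 fell (-0.51), and of 7 genes for copper delivery COX11 fell (-0.68). None of 7 genes for COB expression passed. Of 7 genes of nonsense-mediated decay 2 rose and 2 fell, with NAM7, the helicase Upf1, at 0.50 and EBS1 at -0.76. The split of each list is read against 11.2% of genes higher and 8.91% lower in asc1-M1X.

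For each member the gene most like it in TE change over the 9 mutant comparisons with poly(A)-selected RNA was found among 4624 genes. CAD1 was most like MUD2 (r = 0.99), HOL1 CTS2 (r = 0.98), HAC1 PUF6 (r = 0.97), FOL1 HO (r = 0.97), SCO1 MRP2 (r = 0.97), YAP1 PEX30 (r = 0.96), CBS1 YJR084W (r = 0.93), CLN3 SUT1 (r = 0.91), INO2 RAD52 (r = 0.91) and PPR1 YNG1 (r = 0.88). These Pearson correlations describe the comparisons, which share WT libraries, and each value is the highest among all the genes searched. No member was the nearest gene of another.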

How the data were processed

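Per the labels, TopHat was run against the Sigma1278b genome, and the authors counted uniquely mapping reads outside the first 30 codons of each ORF. These deposited raw counts were the values used. Whether counting used strand is not given in the sources used here, nor is a version of TopHat. Further deposited tables of densities, scaled counts and the authors' own fold changes were not used. The members, gene lists and tests were chosen with earlier results of these data known.

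A gene encoded in mitochondrial DNA did not enter (19 such genes), and a nuclear gene was tested with at least 128 FP and 128 RNA reads summed over a comparison. FP, RNA and TE (as the interaction of library type and strain) were tested in R 4.3.3 by the quasi-likelihood test of edgeR 4.0.16, with TMM factors for FP and RNA apart, adjusted by Benjamini-Hochberg over all genes and called at 0.05, with the 2 groups compared in each fit, and with DESeq2 1.42.0 as an alternative. The SE given with an edgeR change is the absolute log2 change over the square root of its F statistic. The scripts were tested on simulated data. TE levels used median-ratio factors in Python 3.11.15 with pandas 2.3.3. CPM refers to the total of nuclear ORF reads. Replicates are cultures. FP and RNA of one number came from the same extract, and their replicate differences correlated at 0.02 to 0.53 across genes in 14 pairs, 12 of them over 0.1. The WT columns of the deletion collection could be tied to the group but not to single samples, so no block was fitted there. Single libraries prepared again (6 samples) were not analysed here. Named genes were all members and, from each list, up to 2 genes with the largest TE change past the threshold and of one sign in both cultures. Alternatives were scaling by library totals, DESeq2, no count minimum, a culture block and leaving out each culture. Precision is limited by 2 cultures per group.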

Additional observations from a re-analysis of the deposited data

How the results depend on the processing

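The number of members changed in TE depended most on the replicate block, which lets FP and RNA of one culture share a term. With the replicate block it was 6 in asc1-M1X and 6 in asc1-Null in glucose, 4 in rpp1a-Null, and 2 in asc1-M1X in glycerol, against 3, 1, 1 and 0 without it. The blocked fits called 15 further member changes in TE, all of one direction with the unblocked estimate, and lost no TE call. In the FP and RNA fits the replicate block joined mutant and WT cultures that share only a number. There the number of members changed in RNA was 3 in asc1-M1X, 2 in asc1-Null, 1 in asc1-D109Y and 5 in rpl23b-Null, against 0, 0, 0 and 3 without it, and in FP it was 6 in rpp1a-Null, against 2. With DESeq2 the number with Ribo-Zero RNA was 1, against 3. When each culture was left out in turn the number lay between 1 and 2 in asc1-M1X and between 1 and 2 with Ribo-Zero RNA, between 1 and 2 in rpl23b-Null, between 0 and 1 in rpp1a-Null and between 0 and 1 in rps16b-Null. The calls lost were those of HAC1 in rpp1a-Null, HOL1 and FOL1 in asc1-M1X, CAD1 in rpl23b-Null, and YAP1 and HOL1 with Ribo-Zero RNA. Where a fit left 1 culture in a group, that culture was assumed to vary like the others. In FP, DESeq2 called 3 members in rpl23b-Null and 0 each in rps0b-Null and rps16b-Null, against 5, 1 and 1. In RNA it called 3 in rpp1a-Null, 1 in rps0b-Null and 0 with Ribo-Zero, against 5, 4 and 2. Scaled by library totals, 3 passed in RNA in asc1-M1X, 2 in asc1-Null and 5 between poly(A)-selected and Ribo-Zero RNA of WT, against 0, 0 and 3. Without the count minimum 3 passed in FP in rps0b-Null, against 1. With a culture left out, the lowest and highest numbers in FP were 2 in rpl23b-Null (without WT replicate 1), 1 and 4 in rpp1a-Null (without WT replicate 1 and rpp1a-Null replicate 1), 3 in rps0b-Null and 4 in rps16b-Null (each without the second WT column), 0 in rps16b-Null (without either of its cultures) and 3 in asc1-M1X in glycerol (without WT replicate 2), against 5, 2, 1, 1 and 5. In RNA they were 1 in asc1-M1X (without either WT culture), 1 in asc1-Null and 1 in rpl23b-Null (both without WT replicate 1), 2 in rps0b-Null (without its replicate 2), 2 in rps16b-Null (without its replicate 2), 0 in asc1-M1X in glycerol (without WT replicate 2), 1 in Ribo-Zero asc1-M1X (without either of its cultures or WT replicate 1) and 1 between the RNA types (without Ribo-Zero WT replicate 2), against 0, 0, 3, 4, 0, 1, 2 and 3. Over all alternatives, 787 values of single members were recomputed, for FP and RNA changes that passed and for TE changes that passed in any fit, of which 672 kept their side of the threshold, 94 fell short of it, 21 newly passed it and 0 changed sign. Of all genes called in TE in asc1-M1X, 55.8% were higher, and 65.9% when scaled by library totals alone. The causes of these changes were not tested.

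A group had 2 cultures, and CBS1 had as few as 25 RNA reads in a library, so that its TE changes in the mutants had an SE of up to 0.46, against at most 0.20 for YAP1. INO2 and CBS1 fell under the minimum of 128 reads in WT alone in 1 and 2 of the 5 sets, and their TE levels there are uncertain. The WT rank of HAC1 from the lowest TE in the main experiment was 98 of 5312 genes without the count minimum, against 1 of 4616 with it, and the percentile of CLN3, HOL1 and PPR1 was 5.44, 6.63 and 6.65 without the count minimum, against 1.47, 2.23 and 2.25 with it.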
